A study of Danio rerio with 4 samples.

Results

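The isolated narrow accessible sites were short intervals of a map of open chromatin in zebrafish heart cells, with no other short interval near them. They could touch intervals of other widths, and some held no read. An interval was taken if it was 100 to 1000 bp wide, lay on a chromosome other than 3, 4, 7 and 22, and had no other interval of that width class with its midpoint within 50 kb on the same chromosome. The rule used positions and widths only, and no read count. The authors called the peaks per condition, so positions and widths may themselves depend on the reads of each group. What this does to the comparison of the groups was not tested. It found 2313 of the 54036 intervals in the table. The other 15426 intervals of the same width on these 21 chromosomes, which had such a neighbour, are called clustered narrow sites here, and intervals over 5 kb are called wide.

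ATAC-seq, which reads out open chromatin with a transposase, was run on nonCMs, all heart cells except the cardiomyocytes. The titles name 2 WT and 2 Treatment libraries, all at 7 days, and the read counts were made by the authors. By their labels the fish of both groups had a wild type genotype and the Treatment group also carried amputation, in which the apex of the ventricle is cut off. The study's text instead describes tnfα mutant against wild-type nonCMs, both after amputation, so the labels do not settle whether the groups differ in injury, in genotype or in both, and the group names below are those of the titles. The text gives no number of hearts per library and nothing says that replicates came from separate pools of fish, so p-values measure the spread between these libraries, which may be technical. The labels name the injury area as the source and the methods name hearts. The cell mixture was not checked against marker genes, because gene positions on the build of the table (GRCz11) were not used here.

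In ATAC-seq the transposase Tn5 inserts sequencing adapters where DNA is free of nucleosomes, so that promoters, enhancers and other occupied regulatory elements appear as short stretches dense in reads. Regulatory elements often lie in groups around the genes they serve, while others lie alone in long stretches of closed chromatin. In the regenerating zebrafish heart the nonCMs include epicardial cells, fibroblasts, endocardial and endothelial cells and blood cells, each with its own set of open elements. A lower count at a site in such a mixture may come from fewer cells with the site open or from less opening per cell, and these cannot be told apart.

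The libraries held 16128000 and 16822284 counted reads in WT and 14736856 and 16558109 in Treatment. The isolated sites covered 1017 kb, where all intervals together covered 806057 kb and had a median width of 2152 bp. Isolated therefore means apart from other narrow intervals, and not alone in sequence without intervals. The isolated sites took 1.25% of the counts in WT replicate 1 (95% Wilson interval 1.25 to 1.26). The share was 1.34% in WT replicate 2 (interval 1.34 to 1.35), then 1.23% in Treatment replicate 1 (interval 1.23 to 1.24) and 1.19% in Treatment replicate 2 (interval 1.19 to 1.20). Both WT shares were above both Treatment shares, the WT pair lying further apart than the nearest WT and Treatment libraries. These intervals cover counting error only.

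The isolated sites were spread over all 21 chromosomes, from 73 on chromosome 24 to 153 on chromosome 5, or 1.73 sites per Mb on chromosome 24 to 2.67 on chromosome 25. Their median width was 413 bp. The distance to the nearest narrow interval had a median of 89.9 kb and quartiles of 64.3 and 146 kb. For 1012 sites it was over 100 kb and for 18 sites over 500 kb. At the edge of the rule, chr9:425953-426618, with its nearest narrow interval just beyond the limit, held 133 and 135 reads in WT and 109 and 142 in Treatment. Just outside it, chr6:30490925-30491724, at 49.9 kb, held 182 and 271 reads in WT and 171 and 171 in Treatment.

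By their reads the isolated sites fell into a large group with signal and a smaller one with almost none. A filter on low counts passed 1902 sites (82.2%), each with 40 or more reads over the 4 libraries. The other 411 sites held 196 and 236 reads in all in the WT libraries and 165 and 196 in the Treatment libraries, and no site of them had more than 14 reads in any library. Of these 411 sites, 294 had no read in any library, which is 12.7% of the isolated sites (95% Wilson interval 11.4 to 14.1) against 295 of the 15426 clustered sites (1.91%, 1.71 to 2.14). A count of 0 in a library allows up to 3 reads there by counting error, so these sites were not detectable as open in these libraries. Why intervals with no read were among the peaks was not tested.

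The sites that did not pass were mostly very narrow and stood free of other intervals. Their median width was 117 bp (quartiles 116 and 124), and 289 of the 411 (70.3%) were 110 to 120 bp wide. The edge site chr10:36163179-36163294 was of this kind, with 0 reads in each library. Among the 411, 406 (98.8%) touched no other interval, and the median gap to their neighbours was 43.7 kb. The same shape was present but less frequent among clustered narrow sites with at most 40 reads, of which 280 of 1012 (27.7%) were 110 to 120 bp wide and 568 (56.1%) touched no other interval. The sites that passed were wider, at 456 bp in the median (quartiles 326 and 631), and only 454 of the 1902 (23.9%) touched no other interval, while 729 (38.3%) touched another on each side. The share of isolated sites with no read ran from 6.96% on chromosome 20 to 21% on chromosome 25.

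**Figure D1:**
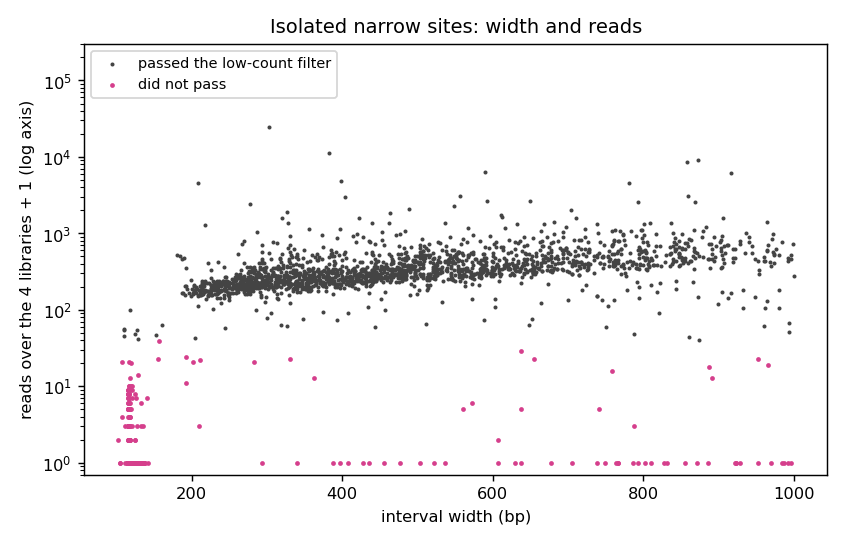
Each point is 1 isolated narrow site, placed by its width in bp and by its reads over the 4 libraries plus 1, on a log axis. The 411 sites that did not pass the low-count filter (magenta) pile up at 110 to 120 bp, and the 1902 that passed (grey) form a band whose reads rise with width.

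Most sites that passed were modest. Their reads over the 4 libraries had a median of 310, quartiles of 232 and 446 and a highest value of 24729. The median count of a site was 79.5 in WT replicate 1, 89 in WT replicate 2, 71 in Treatment replicate 1 and 74 in Treatment replicate 2. The median over all sites and libraries was 78 reads, at which counting error alone is 11.3%. Only 64 sites reached 1000 reads, and the 4 sites with the most reads held 6.67% of all reads in isolated sites. Reads rose with width, from a median of 218 in the narrowest quartile through 273 and 348 to 472 in the widest, so density changed less, with a median of 180 reads per kb per library and quartiles of 143 and 225.

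The isolated sites that passed were short dense stretches, mostly beside long sparse intervals. The rule bars other narrow intervals nearby, so wide neighbours follow in part from it. Of the 3802 neighbours on either side of the sites that passed, 50.9% were over 5 and up to 50 kb wide and 31.5% were wider still. An interval between 2 isolated sites was counted for each of them. The neighbours had a median width of 25.9 kb and a median of 14.1 reads per kb per library. The read density of a site over that of its 2 neighbours had a median of 12.4-fold, and its 5th and 95th percentiles were 4.1-fold and 39.8-fold. Both neighbours lay within 1 kb at 805 of the 1902 sites (42.3%), so elsewhere the ratio reaches to intervals farther off. The 411 sites that did not pass had neighbours of like density, 13.9 reads per kb per library at the median. No isolated site was open in 1 group only. That would be at most 3 reads over both libraries of a group together and at least 15 in each library of the other.

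Between the groups, the isolated sites that passed were on the whole slightly lower in Treatment. In each library, the median over sites of log2 CPM (reads scaled to library size), each site centred on its mean, was 0.04 in WT replicate 1, 0.13 in WT replicate 2, -0.04 in Treatment replicate 1 and -0.11 in Treatment replicate 2. The groups did not overlap and their means differed by -0.15, against a difference of 0.09 between the WT replicates and -0.07 between the Treatment replicates. The exact two-sided permutation test gave p = 0.33, the smallest that 2 libraries against 2 allow. The median fitted log2 fold change of Treatment over WT was -0.16 with quartiles of -0.39 and 0.08, and 1286 of the 1902 sites (67.6%) were below 0, where 50.5% of all tested intervals were, their median being -0.002. The share of isolated sites below 0 was 54% with factors from narrow intervals alone and 60% without WT replicate 2.

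Clustered narrow sites lay nearby. Their centred log2 CPM was 0.02 and 0.10 in WT and -0.02 and -0.07 in Treatment, a difference of -0.10, and their median log2 fold change was -0.11 with 62.9% below 0. Wide intervals had a median of 0.04, with 38.7% below 0. Within each library the isolated minus the clustered median was 0.017 and 0.024 in WT and -0.019 and -0.038 in Treatment. These values did not overlap between the groups and differed by -0.05, again at the smallest exact permutation p of 0.33. A scaling factor moves both medians of a library alike, so this difference could not change with the scaling and is no check of it. It was -0.013 with the distance limit raised to 100 kb. The sign of the isolated sites' own median held under every scaling tried, but its size did not: with factors computed from narrow intervals alone it was -0.04, while the median of all intervals moved to 0.11.

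**Figure D2:**
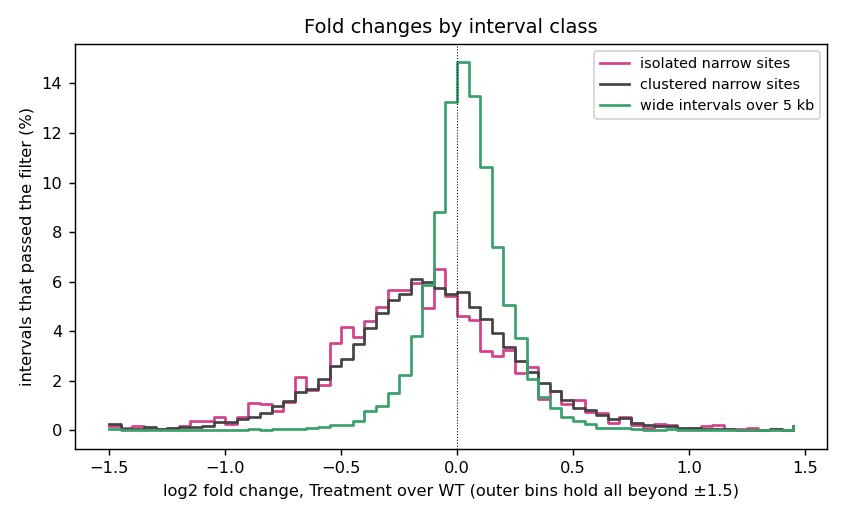
Share of tested intervals (%) in each bin of log2 fold change, Treatment over WT, for isolated narrow sites (magenta), clustered narrow sites (grey) and wide intervals (green). Both narrow classes spread from about -1 to 1 with medians of -0.16 and -0.11, while wide intervals stay close to their median of 0.04.

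The contrast of a site with its surroundings moved in the same direction. The median log2 ratio of site density to neighbour density was 3.67 in WT replicate 1, 3.82 in WT replicate 2, 3.59 in Treatment replicate 1 and 3.48 in Treatment replicate 2. The WT libraries averaged 3.75 ± 0.11 (SD, n = 2) and the Treatment libraries 3.53 ± 0.08 (SD, n = 2), a difference of -0.21 with no overlap and an exact permutation p of 0.33. Clustered sites had lower ratios and a smaller difference, with 2.88 and 2.95 in WT and 2.80 and 2.74 in Treatment, differing by -0.15. By definition these have another narrow interval within 50 kb, so their neighbours may be narrow sites themselves. The ratios of the isolated and clustered sites are therefore not measured against like neighbours. By this ratio, reads were less concentrated in narrow sites in both Treatment libraries than in both WT libraries. For isolated sites the WT replicates differed by 0.15 and the Treatment replicates by -0.11. A group difference therefore cannot be told apart from differences between single libraries. The part of this ratio in the lower counts at isolated sites was not tested.

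**Figure D3:**
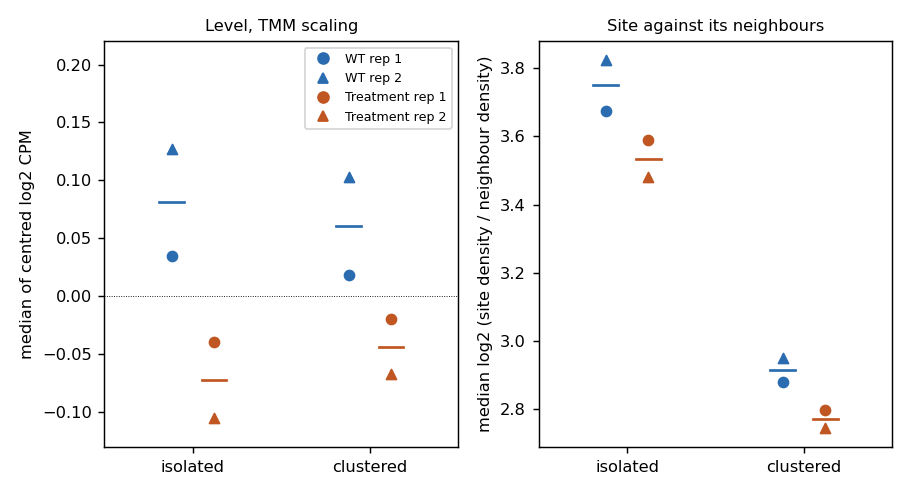
Left, the median over sites of centred log2 CPM in each library, and right, the median log2 ratio of site density to neighbour density, for isolated and clustered narrow sites. Circles are replicate 1, triangles replicate 2 and horizontal lines group means (n = 2), and in both panels both WT libraries lie above both Treatment libraries.

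With factors from all intervals, the median was below 0 in every class of isolated site compared. By chromosome, the median log2 fold change was below 0 on 21 of 21, from -0.25 on chromosome 17 to -0.06 on chromosome 20. It was below 0 on 19 of 21 chromosomes with the factors from narrow intervals, and on 19 of 21 without WT replicate 2. The sites of the lowest quartile of mean CPM had a median of -0.25, followed by -0.20, -0.12 and -0.11 in the next quartiles. By width the quartiles gave -0.22, -0.19, -0.16 and -0.08 from narrowest to widest. Medians by quartile were not computed with factors from narrow intervals, under which the median of all tested isolated sites was only -0.04. Whether each quartile stays below 0 there is therefore not known.

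Medians by distance, computed only with factors from all intervals, lay close together. The 1118 tested sites with their nearest narrow interval at 50 to 100 kb had a median of -0.18, the 558 at 100 to 200 kb -0.13 and the 226 farther out -0.12. Sites that touched no interval had a median of -0.10, those touching 1 had -0.17 and those touching 2 had -0.15. Narrow intervals just outside the rule, with a nearest neighbour at 40 to 50 kb, had -0.17, close to the -0.18 of the isolated sites at 50 to 60 kb.

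Site by site, few differences passed a test. In edgeR's quasi-likelihood test across all 50494 intervals that passed the filter, with Benjamini-Hochberg adjustment, 20 of the 1902 isolated sites (1.05%) had an adjusted p under 0.05, where 1.16% of all tested intervals did. Of these, 16 were lower in Treatment (0.841%, background 0.721%) and 4 higher (0.210%, background 0.438%). The count of called sites was thus near the background. The spread to lower values showed below that threshold: 694 sites (36.5%) had both Treatment libraries under both WT libraries, where 21.4% of all tested intervals did, and 237 (12.5%) had both above, against 19.9%. An unadjusted p under 0.05 was reached by 269 lower sites (14.1%, background 6.68%) and 71 higher sites (3.73%, background 4.51%). This excess of lower sites was much smaller with factors from narrow intervals, at 151 lower and 137 higher, and it was 158 and 88 without WT replicate 2. Among clustered sites 30.6% and 13.8% did not overlap. Shares without overlap were computed only with factors from all intervals, and other factors can move them.

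The split of calls depended on the scaling and on single libraries. With factors from narrow intervals alone, 15 isolated sites were lower and 15 higher. Of the 16 lower sites, 6 remained called without WT replicate 1, 11 without WT replicate 2, 7 without Treatment replicate 1 and 4 without Treatment replicate 2. DESeq2's Wald test called 1 lower and 2 higher. The paper names DESeq2 as its own test for peaks that differ between conditions. Of the called sites, DESeq2 kept only chr25:4484781-4485064, chr2:56482300-56482602 and chr8:39430528-39430712.

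**Figure D4:**
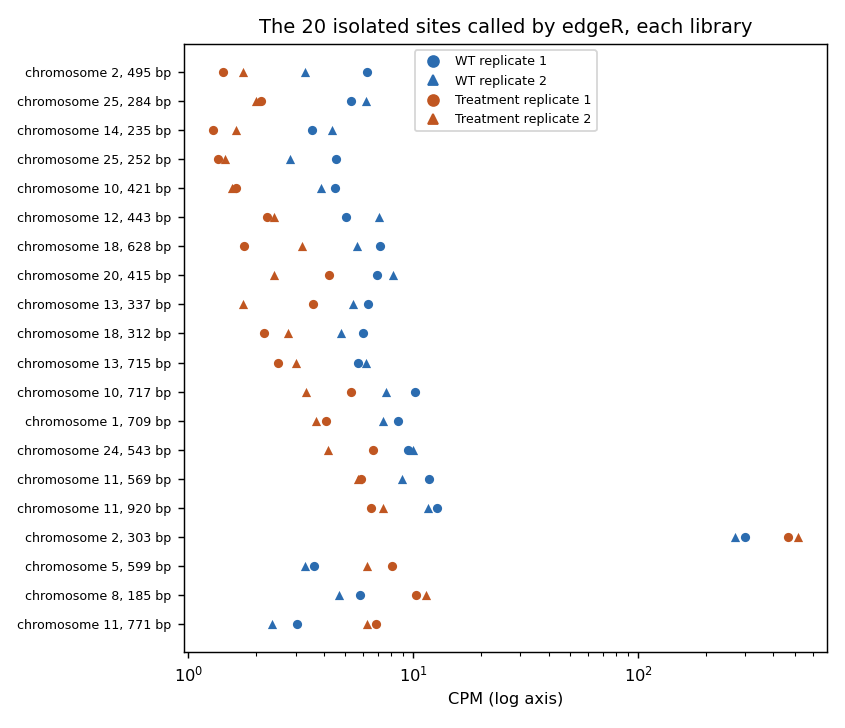
CPM (log axis) of the 20 called isolated sites in each library, named by chromosome and width, with WT in blue, Treatment in orange, circles for replicate 1 and triangles for replicate 2. No site has overlapping groups, and the 303 bp site on chromosome 2 lies far above the rest.

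The 20 called sites lay on 13 chromosomes, were 185 to 920 bp wide and had their nearest narrow interval at 51.4 to 296 kb. The lower ones fell by 1.75-fold to 2.97-fold and the higher ones rose by 1.72-fold to 2.42-fold. Their mean levels were low for all but 1 of them: the highest was 387 CPM and the next 9.57 CPM. At all 20 the groups did not overlap, as was so at 41.2% of all tested intervals. Sites named for the size of their change had to meet this, so it adds no support to their calls.

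The lower site that held best was chr25:4484781-4485064, 284 bp wide, with 85 and 105 reads in WT and 31 and 33 in Treatment. The site averaged 5.75 ± 0.63 CPM in WT and 2.05 ± 0.08 CPM in Treatment (SD, n = 2). It was named because it was called, so a gap wide beside this spread adds no support. The log2 fold change came to -1.49 (SE 0.30, edgeR adjusted p = 0.00274), and it kept its call in all 12 alternative settings, at adjusted p of 0.000717 to 0.0424. It touched no other interval, with neighbours ending at chr25:4482506 and starting at chr25:4507288.

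The largest drop among the called sites was at chr2:59229028-59229522, where WT had 100 and 56 reads and Treatment 21 and 29. Here the WT replicates lay far apart. The log2 fold change was -1.57 (SE 0.35, edgeR adjusted p = 0.00793), and it was -1.04 without WT replicate 1. The call was lost without WT replicate 1, without Treatment replicate 1 and under DESeq2's Wald test (adjusted p = 0.112). A second site on chromosome 25, chr25:1471132-1471383, had a like pattern of uneven WT replicates, with 73 and 48 reads in WT and 20 and 24 in Treatment and a log2 fold change of -1.38 (edgeR adjusted p = 0.0433). It kept its call in 1 of the 4 fits that left out a library, the one without WT replicate 2.

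At chr12:42104765-42105207, 443 bp inside a stretch where the intervals on each side touch it, WT had 81 and 119 reads and Treatment 33 and 40. All libraries of the groups were apart, at a log2 fold change of -1.37 (edgeR adjusted p = 0.00547). The call was lost without WT replicate 2, at a log2 fold change of -1.11, and under DESeq2's Wald test (adjusted p = 0.0601). The site chr10:5268045-5268465 had the closest replicates of the 8 largest drops among called sites, with 72 and 66 reads in WT and 24 and 26 in Treatment. There the log2 fold change was -1.38 (edgeR adjusted p = 0.0225), and the call held only without WT replicate 2 among the fits that left out a library.

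The Treatment replicates were the uneven pair at other sites. At chr18:47131541-47132168 WT had 114 and 95 reads and Treatment 26 and 53, with a log2 fold change of -1.34 (edgeR adjusted p = 0.00767). Its call was lost without WT replicate 1, without Treatment replicate 1 and under DESeq2's Wald test (adjusted p = 0.0918). At chr20:48014168-48014582 WT had 111 and 138 reads and Treatment 62 and 40, with a log2 fold change of -1.19 (edgeR adjusted p = 0.00956). This call was lost without WT replicate 2, without Treatment replicate 2 and under DESeq2's Wald test (adjusted p = 0.11). The groups stayed apart at both sites. At chr14:30272472-30272706, 235 bp wide, WT had 57 and 74 reads and Treatment 19 and 27, with a log2 fold change of -1.43 (edgeR adjusted p = 0.0231), and among the fits that left out a library the call held only without WT replicate 1.

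Among the lower sites with more reads the changes were smaller. The count at chr11:10548180-10549099, the widest called site at 920 bp, was 205 and 197 in WT and 96 and 122 in Treatment, a log2 fold change of -0.81. At chr11:42099184-42099752 it was 188 and 151 in WT and 86 and 94 in Treatment, a log2 fold change of -0.84. These sites on chromosome 11 lay on separate parts of it and each kept WT above Treatment in all libraries. At chr24:3963338-3963880 the level was 9.72 ± 0.35 CPM in WT and 5.38 ± 1.72 CPM in Treatment (SD, n = 2, log2 fold change -0.86). At chr10:31512742-31513458 the read counts were 164 and 129 in WT and 78 and 55 in Treatment (log2 fold change -1.05). These 4 kept their calls in 1 to 2 of the 4 fits without a library, with edgeR adjusted p reaching 0.156, 0.251, 0.61 and 0.379 in that order.

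The site with by far the most reads was among those higher in Treatment. At chr2:56482300-56482602, 303 bp wide, the counts were 4809 and 4558 in WT and 6823 and 8539 in Treatment. That is 284 ± 21.8 CPM in WT and 490 ± 36.7 CPM in Treatment (SD, n = 2), with no overlap. The log2 fold change was 0.79 (SE 0.05, edgeR adjusted p = 4.94e-14) and it stayed called in all 12 settings. Its density was 20403 reads per kb per library, where the median of the sites that passed was 180. That was 2646-fold the density of its neighbours, which touched it on neither side and had log2 fold changes of 0.52 and 0.36 that were not called. Why the site was so dense was not tested, and the treatment of duplicate reads is not given. This site alone held 3.07% of the reads in isolated sites.

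The narrowest called site, chr8:39430528-39430712, is 185 bp wide and was also higher, with 93 and 79 reads in WT and 152 and 188 in Treatment. It had 692 reads per kb per library, 55.2-fold over its neighbours. These lay 69007 and 81219 bp away, and the left one was itself narrow at 0.555 kb, so the ratio is not with adjoining sequence. The log2 fold change was 1.05 (SE 0.21, edgeR adjusted p = 0.00273), and the call held in 11 of 12 settings, being lost without Treatment replicate 2 (adjusted p = 0.0604, within 3.46e-05 to 0.0604 over the settings). At chr5:64575203-64575801 the counts were 58 and 56 in WT and 119 and 103 in Treatment, a log2 fold change of 1.04 (edgeR adjusted p = 0.0258), lost without WT replicate 2 and without Treatment replicate 1, up to 0.301.

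At chr11:36541417-36542187 the site and its surroundings moved in opposite directions. The site had 49 and 40 reads in WT and 101 and 103 in Treatment, a log2 fold change of 1.27 (SE 0.28, edgeR adjusted p = 0.00664), which was lost without WT replicate 2 and without Treatment replicate 1 (adjusted p up to 0.087). The interval that starts at the next base and is wide was itself called, lower in Treatment, at a log2 fold change of -0.76. It was the only called interval among the 40 that flanked the 20 called sites, where 1.16% of all tested intervals were called.

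The intervals beside the called sites differed little between the groups. Of the 40 flanking intervals, 17 (42.5%) had the sign of their site. Most of the 20 sites were lower and 38.7% of all wide intervals were below 0, so this share is near the background. The median absolute log2 fold change of the flanking intervals was 0.09. The 1.13 of the called sites themselves follows from how they were selected and is no test against it. Among the 20, 15 had no other called interval within 500 kb. The same share over all tested intervals was not computed, so this count does not set the called sites apart. Over the 1894 sites that passed and had tested neighbours, the neighbours' median log2 fold change was 0.03, the median difference of site minus neighbours was -0.19, and 1328 sites (70.1%) were below their neighbours. Spearman's rho between site and neighbours was 0.10 over these sites, which share libraries and depth and are not independent. A share below the neighbours was not computed for clustered sites or for all tested intervals, so 70.1% does not set the isolated sites apart.

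**Figure D5:**
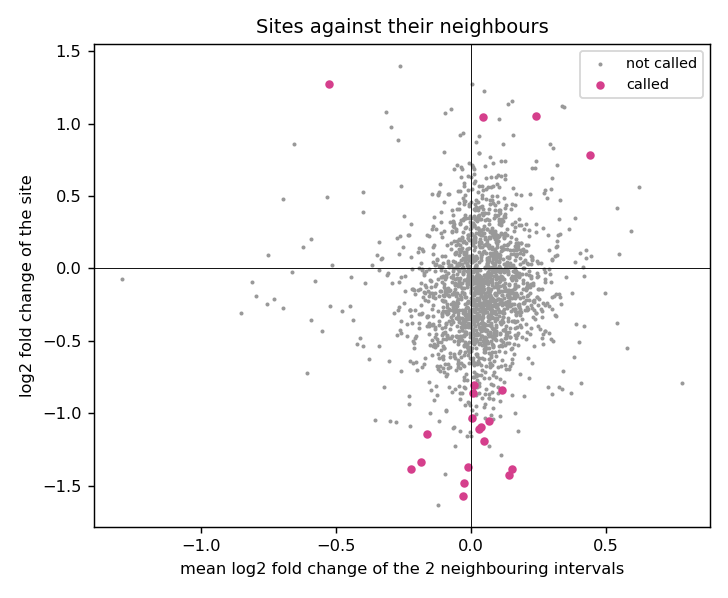
Log2 fold change of each isolated site that passed the filter (vertical axis) against the mean of its 2 neighbouring intervals (horizontal axis), with the 20 called sites in magenta. The 16 lower called sites all have a log2 fold change below that of their neighbours, and the called site at the upper left is the one on chromosome 11 whose neighbour was lower.

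The other isolated sites of highest mean CPM were not called. At chr2:14005883-14006264 the counts were 2765 and 2812 in WT and 2629 and 3105 in Treatment, with a log2 fold change of 0.12 (edgeR adjusted p = 0.467) and a density 1068-fold that of its neighbours. At chr17:2492789-2493661 they were 2432 and 2440 in WT and 2119 and 2268 in Treatment, a log2 fold change of -0.07 (edgeR adjusted p = 0.721). At chr17:50858979-50859836 they were 2119 and 2425 in WT and 1914 and 2052 in Treatment, a log2 fold change of -0.12 (edgeR adjusted p = 0.519). Scaled to CPM, the groups did not overlap at chr2:14005883-14006264, which was higher in both Treatment libraries, or at chr17:50858979-50859836, which was lower in both. They overlapped at chr17:2492789-2493661, and none of these differences passed the test.

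The most isolated sites were ordinary in level. The one farthest from any other narrow interval, chr11:9563372-9563874 at 893 kb, had 90 and 58 reads in WT and 60 and 82 in Treatment, so that the groups overlapped, with a log2 fold change of 0.01. Next, chr14:37743840-37744218 at 734 kb had 100 and 95 reads in WT and 85 and 88 in Treatment (-0.09), and chr9:48943368-48943864 at 709 kb had 114 and 156 in WT and 107 and 137 in Treatment (-0.07). None of these was called in any setting, and the sign of each changed in at least 1.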

How the data were processed

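NonCMs were isolated from zebrafish ventricles and tagmented with a commercial ATAC-seq kit. After trimming (Trim Galore) and Bowtie2 alignment to GRCz11, the authors dropped mitochondrial and multiply mapped reads, and Genrich peaks were called per condition over the 2 replicates. The deposited table holds whole-number read counts per interval for each library. How the peak sets were joined, the counter, the treatment of duplicates and any Tn5 shift are not given in the sources used here. In it, 24126 intervals end where the next begins and 0 overlap, so 1 was added to each start to print positions.

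Counts of all 54036 intervals were filtered with edgeR's filterByExpr (minimum count 10), scaled by TMM and tested with edgeR 4.0.16 (quasi-likelihood, group only) in R 4.3.3, adjusted over all tested intervals. The SE is the absolute log2 fold change over the root of F. The test was run on simulated counts drawn with the spread estimated from these same libraries, which is no independent check of its error rate. Log2 CPM used a prior count of 2. Neighbours are the nearest intervals of any width on each side. A called site has an adjusted p under 0.05.

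Named sites followed rules: the called sites of largest absolute log2 fold change whose groups do not overlap (up to 8 per direction), the next 4 called sites by mean CPM, the 4 isolated sites of highest mean CPM and the 3 most isolated that passed. Sites at the edge of the rule were named for their distance. The sites, lists and rules were chosen with earlier results of these data known. Alternatives were DESeq2 1.42.0, limma 3.58.1 (voom), other scalings and filters, a replicate block, other distances and widths, and leaving out each library. Since no genome of the build was used, gene positions, marker loci, gene lists, motifs and sequences are not analysed here. No other sample column was present to leave out.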

Additional observations from a re-analysis of the deposited data

How the results depend on the processing

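The counts of called isolated sites moved with tool and scaling. Against 16 lower sites, DESeq2 called 1 and the replicate block 27. Against 4 higher sites, DESeq2 called 2 and factors from narrow intervals 15. Other distance limits changed the sites tested more than the share called: at 25 kb, 30 lower and 13 higher of 3515 (1.22%), and at 100 kb, 7 lower and 1 higher of 784 (1.02%), against 1.05% of 1902. Of all intervals, 585 were called, against 252 by DESeq2, which kept 3 of the 20 called sites: chr25:4484781-4485064, chr2:56482300-56482602 and chr8:39430528-39430712. Leaving out 1 library gave 8 to 26 lower sites, 3 to 6 higher sites and 302 to 996 calls in all, and kept 7 to 13 of the 20 called sites. With 1 library left in a group, the fit assumes for it the spread of the other group. The median log2 fold change, -0.16, was -0.041 with factors from narrow intervals and -0.19 to -0.10 with 1 library left out, and the contrast with neighbours, -0.21, was -0.29 to -0.14. Over 237 comparisons the 20 called sites kept their direction in 237 and their call in 173. The groups did not overlap at any of the 20, so their direction was nearly fixed when a library was left out and this count is no check of it. Changes of sign were seen only in sites that were not called. With narrow factors these were chr14:37743840-37744218 (0.018), chr17:2492789-2493661 (0.039) and chr9:48943368-48943864 (0.051). With 1 library left out, chr9:48943368-48943864 ranged from -0.24 to 0.14 and chr11:9563372-9563874 from -0.30 to 0.41. Replicate numbers were not used as pairs, since nothing in the labels ties them and deviations of libraries with the same number correlated at -0.06. The replicate block kept 16 lower and 4 higher calls and called 704 intervals in all. Depth limits a site with the median of 78 reads to a counting error of 11.3%, and the median SE was 0.27. Alternatives that need gene positions or a genome were not run.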
